A study of Homo sapiens with 2 samples.

Results

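The regions described here are peaks of chromatin immunoprecipitation that were called with the antibody sc8558 and had no counterpart with the antibody ab21061. They were chosen by the overlap of the 2 lists, as the sc8558 peaks that shared not 1 bp with any ab21061 peak. On each chromosome, the longest stretch without an annotated RefSeq gene was left out. This left 2320 sc8558-only peaks among 6630 sc8558 peaks outside those stretches, a share of 35.0%, and among 7562 sc8558 peaks in all. The same rule applied to the other list gave 2403 ab21061-only peaks of 6687 (35.9%). The overlap itself chose the peaks, so these shares, and the scores and distances between the lists that go with them, are given as descriptions without a test.

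Both libraries came from NB4, an established cell line of acute promyelocytic leukemia that carries the PML-RARA fusion, grown without any stated treatment. There was 1 library for each of 2 antibodies, both labelled as raised against GFI1, and no replicate, so no difference below has a replicate check. The labels disagree in places: the immunoprecipitation protocol names antibodies to the PML/RARα fusion, and the title of the sc8558 library reads GFI2. How deeply either library was sequenced is unknown, a control library was not analysed here, and peak lists hold no expression with which to check the cell type. Nothing in the labels says whether the libraries came from separate cultures. The score of a peak is the authors' value from the peak caller, which in this format is a multiple of the negative log10 of a p-value.

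GFI1 is a zinc-finger repressor of transcription that binds DNA sites with an AATC core and recruits the demethylase LSD1 with CoREST and histone deacetylases. In blood formation it favours the neutrophil over the monocyte fate and restrains its own gene and that of its paralog GFI1B. A polyclonal antibody can enrich places through GFI1 or through other proteins, and a single peak list does not tell these apart.

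Promoters wholly covered by an sc8558-only peak are printed as examples and not as typical places. Of the sc8558-only peaks that could be placed, 5.94% had their midpoint within 1 kb of a protein-coding 5′ end. Of 15842 protein-coding promoter windows in the RefSeq table (GRCh38.p14, from 250 bases before to 50 after the start of a gene), 82 were touched by such a peak and 37 lay wholly inside one. The 6 printed here belong to the highest-scoring peaks among 18 whose 250 bases before the start lay clear of any annotated gene. They were chosen after the values were seen. Each is printed 5′ to 3′ on the strand of its gene, ending at the base before the start. Capitals mark AATC, the core of the GFI1 site, or GATT, the same core on the other strand.

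TAF4B: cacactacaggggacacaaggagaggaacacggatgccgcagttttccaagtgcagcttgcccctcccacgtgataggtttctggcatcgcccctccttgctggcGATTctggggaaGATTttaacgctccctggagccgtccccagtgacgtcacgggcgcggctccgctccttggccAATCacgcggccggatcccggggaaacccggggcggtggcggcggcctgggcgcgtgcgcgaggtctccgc
SGPL1: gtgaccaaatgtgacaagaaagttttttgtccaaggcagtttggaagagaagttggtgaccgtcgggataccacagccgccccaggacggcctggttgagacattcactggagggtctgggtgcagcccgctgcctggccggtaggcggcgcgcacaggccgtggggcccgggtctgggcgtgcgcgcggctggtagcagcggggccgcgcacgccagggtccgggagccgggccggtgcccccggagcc
IL1B: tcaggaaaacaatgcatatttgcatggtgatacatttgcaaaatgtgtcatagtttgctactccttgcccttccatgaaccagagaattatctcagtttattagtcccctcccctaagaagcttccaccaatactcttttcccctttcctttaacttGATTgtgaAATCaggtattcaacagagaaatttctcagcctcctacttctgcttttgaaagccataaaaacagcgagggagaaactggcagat
ACBD6: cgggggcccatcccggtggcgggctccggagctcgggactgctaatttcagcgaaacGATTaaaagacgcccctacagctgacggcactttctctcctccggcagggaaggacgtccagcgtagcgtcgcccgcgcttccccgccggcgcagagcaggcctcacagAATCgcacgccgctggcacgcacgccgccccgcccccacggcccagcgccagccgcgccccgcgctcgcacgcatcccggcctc
FCGR2A: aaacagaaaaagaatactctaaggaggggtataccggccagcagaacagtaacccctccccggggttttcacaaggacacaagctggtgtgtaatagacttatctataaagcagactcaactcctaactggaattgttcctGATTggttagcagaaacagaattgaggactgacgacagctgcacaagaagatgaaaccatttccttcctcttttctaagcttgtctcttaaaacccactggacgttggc
GPS2: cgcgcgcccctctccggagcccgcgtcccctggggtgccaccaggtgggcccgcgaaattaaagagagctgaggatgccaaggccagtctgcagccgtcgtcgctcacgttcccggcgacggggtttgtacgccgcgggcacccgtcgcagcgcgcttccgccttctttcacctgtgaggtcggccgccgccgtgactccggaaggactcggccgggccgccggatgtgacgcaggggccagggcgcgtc

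TAF4B, which encodes a cell-type-restricted subunit of the general factor TFIID, has this promoter at chr18:26226195-26226444 on the plus strand. It lay in a peak with a score of 106.56 and holds 3 core matches. SGPL1, which encodes the lyase that degrades sphingosine 1-phosphate, lies at chr10:70815698-70815947 on the plus strand, with a score of 93.77 and 0 matches. IL1B encodes the inflammatory cytokine interleukin-1β. Its promoter at chr2:112836780-112837029 on the minus strand scored 92.37 and holds 2 matches. ACBD6, which encodes a protein that binds acyl-CoA, lies at chr1:180502578-180502827 on the minus strand, with a score of 88.72 and 2 matches. FCGR2A, the gene of a low-affinity IgG receptor of phagocytes, lies at chr1:161505207-161505456 on the plus strand, with a score of 79.54 and 1 match. GPS2, which encodes a subunit of the NCOR-HDAC3 corepressor complex, lies at chr17:7315361-7315610 on the minus strand, with a score of 70.7 and 0 matches. IL1B and FCGR2A differ from the other four in composition, with 40% and 44.4% G and C and 1 and 4 CG pairs. The other four have 66.4 to 72% G and C and 23 to 35 CG pairs. Their peaks lay 147 to 416 kb from the nearest ab21061 peak, against 3773 bp for IL1B and 411 bp for FCGR2A.

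Core matches are frequent in promoters of any kind. AATC on either strand was present in 62 of the 82 windows touched by sc8558-only peaks (75.6%, 95% exact interval 64.9 to 84.4), in 77.8% of 252 windows touched by overlapped sc8558 peaks, in 69.4% of 62 touched by ab21061-only peaks and in 65.2% of all windows. The longer form AAATCA, which holds the core, was present in 17 of 82 (20.7%, 12.6 to 31.1), in 20.6% of the windows of overlapped peaks, in 17.7% of those of ab21061-only peaks and in 9.61% of all windows. The long GFI1 site, which holds both, was in 0 of 82, which allows a share of up to 3.66% (3 counts of the total, the limit used here for every count of 0), in 5 of 252 and in 27 of 15842. Median G and C content was 59.3% in the windows touched by sc8558-only peaks, 63.0% in those of overlapped peaks and 62.7% in all. Its part in the shares was not tested. The AP-1 site TGANTCA was in 2 of the 82 windows (2.44%, 0.297 to 8.53), in 5.95% of the windows of overlapped peaks, in 10 of the 62 of ab21061-only peaks and in 5.97% of all windows. Of 16 motifs searched on both strands, 15 had an interval in the sc8558-only windows that held the share in all windows, and AAATCA did not. Among sites of other blood factors, the MYB core AACNG was in 74.4% of the sc8558-only windows and 75.5% of all windows. The C/EBP letters TTGCNNAA were in 8.54% and 8.48%. The PU.1 site GAGGAAGT was in 3.66% and 2.54%, and the ETS core it holds, GGAA, in 97.6% and 95.2%. The GATA site AGATAA was in 14.6% and 7.86%, and the RUNX site TGTGGT was in 9 of the 82, which is 11%, and in 11% of all windows. Among general promoter letters, the E-box CANNTG was in 63.4% and 64.9%, the SP/KLF box GGGCGG in 56.1% and 57.4%, the CTCF letters CCCTC in 72.0% and 76.3%, and CCAAT of NFY in 35.4% and 36.0%. The long sites of NRF1 and YY1, like the long GFI1 site given by name only, were each in 1 of the 82 (1.22%), and in 1.67% and 2.7% of all windows. A match anywhere in a window counted, also outside the part covered by the peak.

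The sc8558-only peaks were mostly weak by the authors' score. Their scores ran from 50.02 to 447.95 with a median of 61.6 (quartiles 54.6 and 75.1), and 165 reached 100. Overlapped sc8558 peaks had a median of 107 and ab21061-only peaks one of 62.5. Among sc8558 peaks with a score below 55, 625 of 886 (70.5%, 67.4 to 73.5) had no counterpart. Between 70 and 80 this held for 42.9%, between 100 and 150 for 13.0%, and at 150 or more for 14 of 1360 (1.03%). For ab21061 the last 2 shares were 17.6% and 1.28%. Median widths were 651 bp for sc8558-only peaks and 827 bp for overlapped ones.

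**Figure D1:**
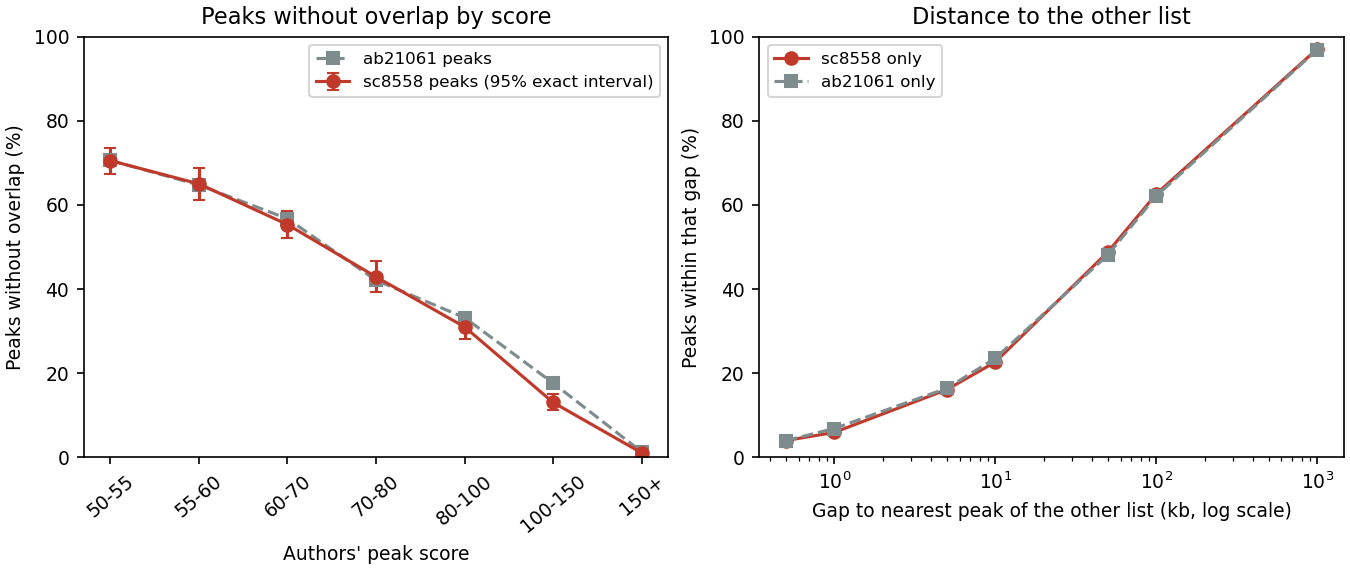
Left: share of peaks without overlap (%) by the authors' score, outside the gene-free stretches, for sc8558 (circles with 95% exact intervals) and ab21061 (squares). Right: share of sc8558-only and of ab21061-only peaks (%) within a given gap, in kb on a log scale, of the nearest peak of the other list. The share without overlap falls from 70.5% below a score of 55 to 1.03% at 150 or more, and 62.6% of sc8558-only peaks have an ab21061 peak within 100 kb.

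Some sc8558-only peaks stood right beside an ab21061 peak. The gap was at most 1 kb for 137 peaks (5.91%), at most 5 kb for 373 (16.1%) and over 100 kb for 868 (37.4%), with a median of 53 kb. For ab21061-only peaks the median gap was 54.8 kb. Of the 137 closest, 88 adjoined an ab21061 peak that was itself overlapped by another sc8558 peak, and 94 adjoined one with the higher score, although scores of the libraries are not on a common scale. Over all 2320 sc8558-only peaks, the nearest ab21061 peak was itself overlapped for 1502 (64.7%) and had the higher score for 1680. Of all ab21061 peaks outside the stretches, 35.9% had no overlap, so overlapped neighbours were about as frequent as overlapped peaks in that list. Median scores were 83.4 for the nearest ab21061 peaks and 61.6 for the sc8558-only peaks. The smallest gap, 4 bp, was found near TM9SF3 on chromosome 10 (score 59.19, against 59.15 for the ab21061 peak). Others just inside the rule lay in ADK, an adenosine kinase gene, at 5 bp, in MED13L, a gene of the Mediator kinase module, at 7 bp, in ARHGEF18 at 19 bp and in CDK6 at 25 bp. Just outside the rule, overlaps of 3 bp near KCTD12, 8 bp near LOC124901649, 9 bp in HYAL4, 12 bp near MBL2 and 18 bp in ANKRD44 made a peak count as found with both antibodies.

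Where the sc8558-only peaks lay relative to protein-coding genes was compared with the other peaks. The overlap did not use this position, but the stretches left out of every class were chosen by the absence of genes. With the stretches kept, the share inside genes was 45% and the share over 100 kb from a gene end 30.7%. Midpoints of 1189 (51.2%, 49.2 to 53.3) lay inside a gene, against 50.8% of overlapped sc8558 peaks and 50.3% of ab21061-only peaks. The differences were 0.438 percentage points (Newcombe interval -2.08 to 2.96) and 0.938 points (-1.91 to 3.79), and both intervals include 0. Over 100 kb from any gene end lay 489 sc8558-only peaks (21.1%, 19.4 to 22.8) and 735 overlapped ones (17.1%), a difference of 4.02 points (2.04 to 6.05). From ab21061-only peaks (22.7%) the difference was -1.6 points, and its interval of -3.96 to 0.758 includes 0. Split by score, the difference from overlapped peaks over 100 kb was 3.02, 0.619 and -2.47 points for scores of 50 to 60, 60 to 80 and 80 to 100, each with 0 in the interval, and 7.0 points (1.18 to 14.0) at 100 or more. That was the 1 of 24 intervals by score band against overlapped peaks that excluded 0. These intervals cover counting error only, peaks are not replicates, and depth differences between the libraries were not tested.

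Within 1 kb of a gene end of either kind lay 197 sc8558-only peaks (8.49%, 7.39 to 9.70), 9.68% of overlapped sc8558 peaks and 7.03% of ab21061-only peaks. The differences of -1.18 points (-2.59 to 0.288) and 1.46 points (-0.0684 to 3.00) both had 0 in the interval. The split into 5′ and 3′ ends was added after the data were seen. Strand was known for 15842 of 20033 genes, and chromosome 8, where none had it, was not used here. This left 2239 sc8558-only peaks. Ends of genes without strand did not count, so the 5′ and 3′ shares are lower limits. Of 188 such peaks near an end of either kind, 133 were near a 5′ and 35 near a 3′ end, with 6 near both. For ab21061-only peaks these counts were 162, 98, 37 and 5. Whether missing strand shifts the difference between them was not tested. Within 1 kb of a 5′ end lay 133 (5.94%, 5.00 to 7.0), against 297 of 4138 overlapped sc8558 peaks (7.18%) and 98 of 2314 ab21061-only peaks (4.24%). The share was 1.71 points above that of ab21061-only peaks (0.429 to 3.00) while the difference from overlapped peaks, -1.24 points, had 0 in its interval (-2.46 to 0.0570). The sign relative to ab21061-only peaks was the same in each of the 4 score bands (1.78, 1.77, 1.46 and 1.34 points), with 0 in every band's interval. None of the 24 intervals by score band against ab21061-only peaks excluded 0. Near 3′ ends the shares were 1.56%, 1.38% and 1.60%. Over all scores, 18 intervals of a difference were computed without adjustment and 3 excluded 0, the other one being for peaks outside genes and over 100 kb from an end (14.8% of sc8558-only and 11.3% of overlapped peaks).

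**Figure D2:**
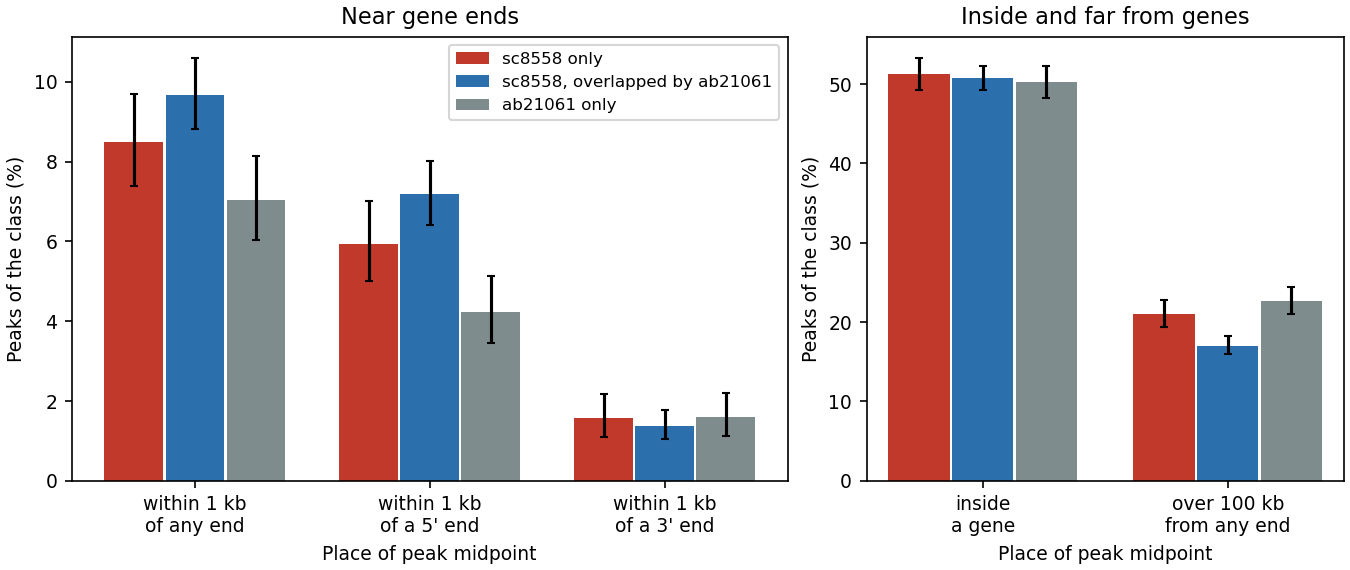
Share of peaks (%) by the place of the midpoint relative to protein-coding genes, for sc8558-only, overlapped sc8558 and ab21061-only peaks, with 95% exact intervals. Shares near 5′ ends, for genes with known strand and without chromosome 8, are 5.94, 7.18 and 4.24%. Shares inside genes are 51.2, 50.8 and 50.3%.

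In the 500 bp just upstream of the nearest 5′ end lay 1.52% of them and in the 500 bp just downstream 1.61%, followed by 1.47% and 1.43% in the next 2 bins. Overlapped sc8558 peaks had 2.37% just upstream and 1.88% just downstream. Of the 133 sc8558-only peaks within 1 kb, 64 had their midpoint upstream and 69 downstream of the start, against 167 and 130 for overlapped peaks. These are descriptions of counts, and the difference in shape was not tested.

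**Figure D3:**
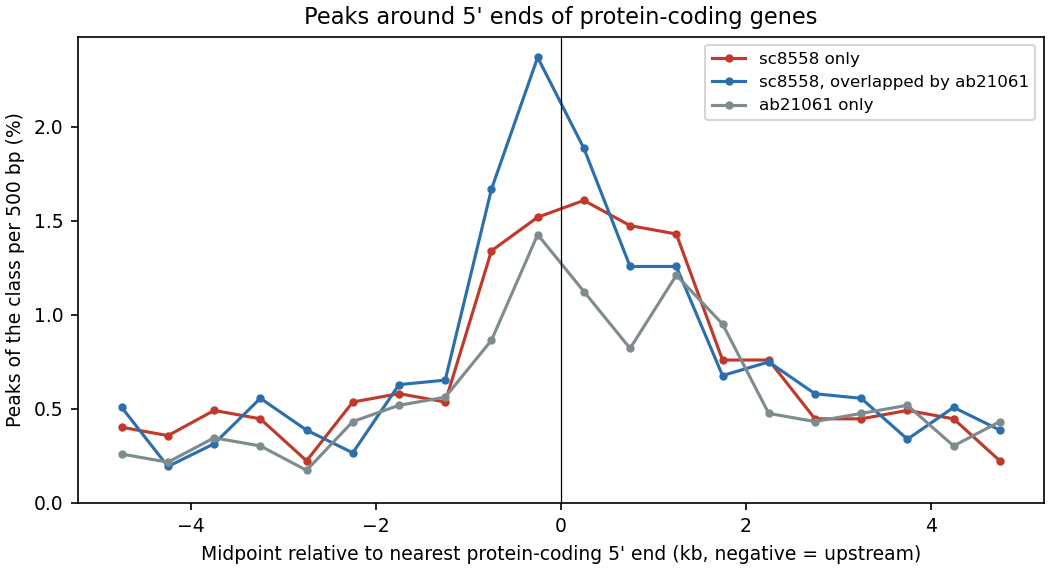
Share of the peaks of each class (%) per 500 bp bin of midpoint distance from the nearest protein-coding 5′ end, in kb, with negative values upstream. Only genes with known strand were used. The sc8558-only line stays between 1.34 and 1.61% from 1 kb upstream to 1 kb downstream, and the overlapped line reaches 2.37% just upstream.

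The strongest sc8558-only peaks near gene ends included housekeeping and chromatin genes. MCM3, a subunit of the replicative helicase, had a peak with a score of 131.32 whose midpoint lay 681 bp from its 5′ end, and an ab21061 peak stood 452 bp away. PKM, the pyruvate kinase gene of proliferating cells, had one with a score of 124.63 at 265 bp from the 5′ end, and an ab21061 peak of 147.44 lay 614 bp from it. UBTD2 (132.35), FAM98A (117.76) and CWF19L2 (111.75) also had theirs at the 5′ end, with the nearest ab21061 peak 410, 94.8 and 778 kb away. H2AZ1, which encodes the histone variant H2A.Z, and HNRNPH1, a splicing factor gene, had peaks of 127.56 and 121.71 at their 3′ ends instead, 131 and 322 bp from them. ANGPT1, the gene of a ligand of the receptor TIE2, had 149.67 at 311 bp from an end, and ZBTB41 had 149.21 at 688 bp. Their strand was not used. Of these regions, those of MCM3 and PKM had an ab21061 peak within 1 kb.

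The 10 highest scores of all lay over 1 kb from gene ends, as did most sc8558-only peaks. At a score of 100 or more, 15 of 165 (9.09%) lay within 1 kb of an end, against 8.49% of all sc8558-only peaks. The highest, 447.95 on chromosome 22 from 12177577 to 12178946, lay 3350 kb from the nearest protein-coding end, and the ab21061 peak nearest to it scored 57.34 at 148 kb. The peak in DACH1, a corepressor gene of the retinal determination network, scored 212.67 and stood 143 bp from an ab21061 peak of 300 that sc8558 also covered with another peak. A peak 5264 bp beyond the 5′ end of IFNGR1, a subunit gene of the interferon-γ receptor, scored 195.97, and the ab21061 peak 4590 bp from it scored 153.89. A peak inside TP53BP2, a gene of a p53-binding protein, scored 195.25 with no ab21061 peak for 79.4 kb. A peak near SULT2A1 on chromosome 19 was 7065 bp wide, the widest of all sc8558-only peaks, and scored 164.43. A peak in the read-through gene POC1B-DUSP6 scored 156.78 and stood 149 bp from an ab21061 peak of 142.4. One peak on chromosome 7 (180.41), from 61190512 to 61191738, lay 2559 kb from LOC124901649, the nearest protein-coding gene. The gene-free stretches left out ended at 60991901 on chromosome 7 and at 10685646 on chromosome 22. The peaks of 180.41 and 447.95 lay beyond these ends, and both count among the 489 over 100 kb from a gene end. How reads were placed beside the stretches was not tested.

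Among the 868 sc8558-only peaks with no ab21061 peak within 100 kb, 3 of the 5 strongest lay inside genes. CDK6, the D-type cyclin kinase that drives entry into the cell cycle, held one of 157.32 at chromosome 7 from 92757133 to 92758035, with the nearest ab21061 peak 122 kb away. GNAI2, the main inhibitory G-protein alpha subunit of leukocytes, held one of 156.51 with a gap of 911 kb. TNPO1, a nuclear import receptor gene, held one of 154.67 with a gap of 253 kb. FUT8, the enzyme of core fucosylation, was the nearest gene to one of 159.43, at 295 kb, with a gap of 292 kb. CDK6 also held the weak peak of 50.25 at 25 bp from an ab21061 peak.

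A total of 1511 protein-coding genes (7.54% of 20033) had an sc8558-only peak within 10 kb of the gene span, 1081 (5.40%) had one in the span and 221 (1.10%) had one within 1 kb of an end. Genes with one within 10 kb were long, with a median span of 75.5 kb against 24.1 kb for all genes, and 502 of the 1511 also had an overlapped sc8558 peak there. Overlapped sc8558 peaks lay within 10 kb of 2594 genes (12.9%), which were also long, with a median span of 60.8 kb. Peaks found only with ab21061 lay within 10 kb of 1459 genes (7.28%). Most genes with an sc8558-only peak, 1313, had a single one. FAR2, a fatty acyl-CoA reductase gene, and TNIK, a kinase gene of the Wnt pathway, had 6 each. The 6 in FAR2 scored 52.53 to 78.38 beside 6 overlapped peaks, and the 6 in TNIK scored 51.13 to 76.67 beside 2. PIK3C2G, ITPR2, the gene of an inositol trisphosphate receptor, and ATP8B4 had 5 each, with 1, 7 and 6 overlapped peaks. The 1 Mb window with the most, on chromosome 3 from 171000000, held 13 and includes TNIK, PLD1 and FNDC3B.

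Gene lists, 18 in all, were described by counts beside the 7.54% of all genes. Transcription factor genes of myeloid cells had sc8558-only peaks in 12 of 38 (31.6%, 17.5 to 48.7), while 18 of the 38 had overlapped sc8558 peaks and 9 (23.7%) had ab21061-only peaks. MYB, a driver of progenitor growth, had 3, at 119.95 and 73.93, 5363 and 4554 bp upstream of its 5′ end, and at 87.6 beyond its 3′ end. The 2 overlapped peaks of MYB lay inside the gene and scored 699.07 and 57.91. RUNX1, the core binding factor gene of blood stem cells, had one of 100.28 with its midpoint 90 bp from its annotated 5′ end, and its 2 overlapped peaks, 672.47 and 268.12, lay 163405 and 213395 bp from that end. ZEB2, a repressor gene, had one of 60.14 at 24 bp from its 5′ end. KLF4, a factor of monocyte differentiation, had one of 89.94 and CEBPD one of 80.7, and neither gene had an overlapped sc8558 or an ab21061-only peak within 10 kb. ETV6, an ETS repressor gene, had 4 between 52.02 and 60.66 and a single overlapped peak of 214.41. ELF1 had 3 (53.71, 59.05 and 87.17) among 9 overlapped ones, and IKZF1, the Ikaros gene, had 3 (53.79, 57.18 and 58.98) beside 2. Within 10 kb, ab21061-only peaks numbered 5 for ELF1, 4 for RUNX1, 2 for IKZF1, 1 each for ETV6 and ZEB2, and 0 for MYB. The IKZF1 peak of 58.98 stood 26 bp from an ab21061-only peak of 112.08, and the ELF1 peak of 53.71 stood 189 bp from one of 59.12. The remaining genes, named after their values were seen, were GFI1, MYC, FLI1 and MITF, with scores of 60.51, 58.87, 57.05 and 55.19.

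**Figure D4:**
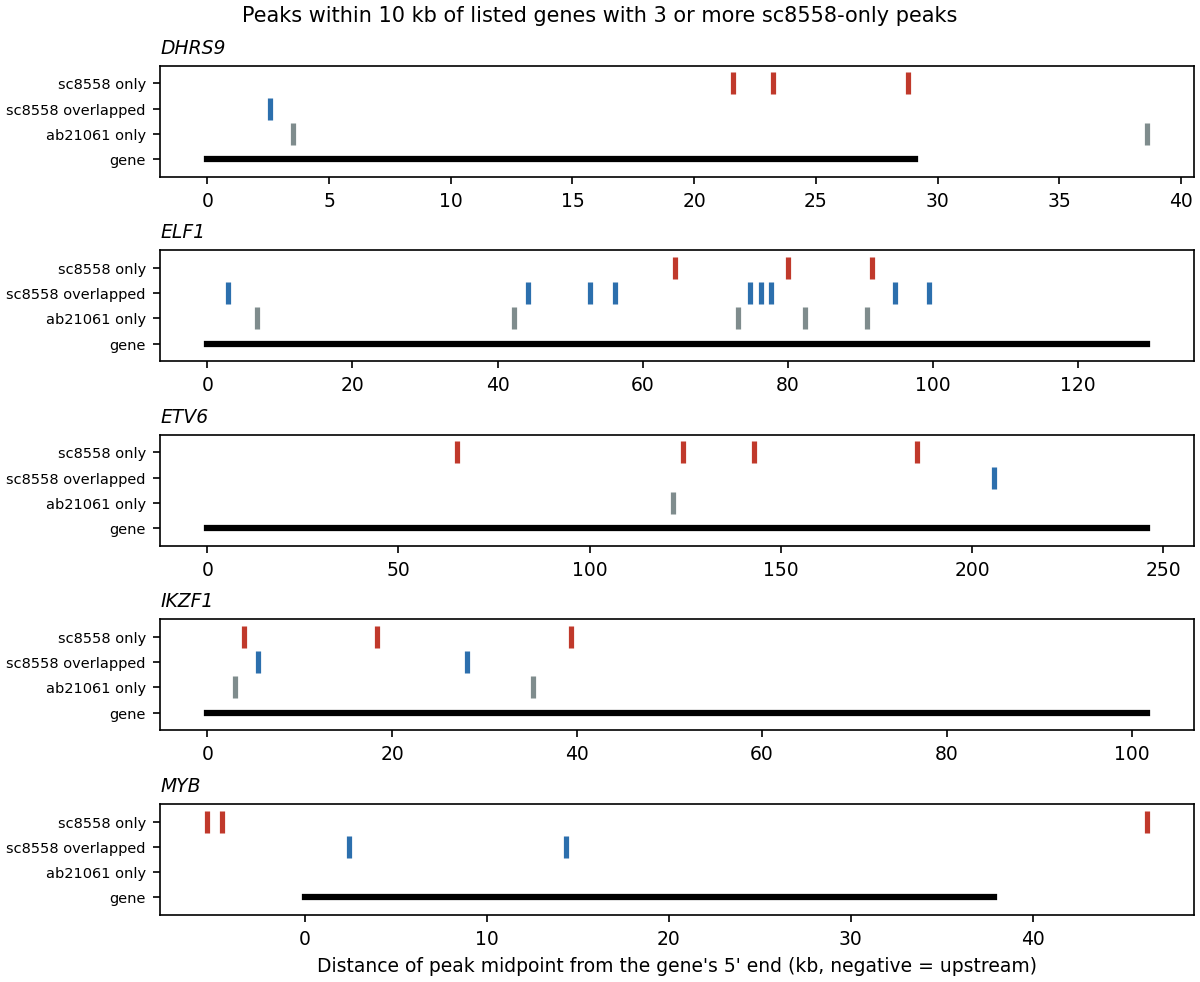
Positions of sc8558-only, overlapped sc8558 and ab21061-only peak midpoints in kb from the 5′ end of each listed gene with 3 or more sc8558-only peaks within 10 kb. The black bar is the gene span. MYB has its sc8558-only peaks on either side of the gene and 2 overlapped peaks inside it, and ELF1 has 3 sc8558-only peaks among 9 overlapped ones.

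Genes of surface receptors and signaling followed. Of 26 cytokine and growth factor receptor genes 7 (26.9%, 11.6 to 47.8) had an sc8558-only peak, 12 had an overlapped one and 6 (23.1%) had an ab21061-only one. IFNGR1 led with the 195.97 given above, followed by TGFBR1, the type I receptor of TGF-β, with 71.63, IFNAR1 with 71.1 and FLT3, a receptor kinase of progenitors, with 60.49. Among 18 SRC family kinase and phosphatase genes there were 4. LYN (75.88), PAG1 (70.42), FYN (70.12) and PTPRC, the CD45 gene (65.32), each held 1, and that of FYN lay 525 bp from its 5′ end. Of 26 innate sensing and NF-κB genes 4 had one. These were IRAK3, an inhibitor of Toll-like receptor signaling (119.39), TLR5 (75.97), NFKBIA, the IκBα gene (70.61), and CLEC4E (56.21). TLR5, NFKBIA and CLEC4E had no overlapped sc8558 peak within 10 kb. Of 19 integrin and adhesion genes 2 did, JAML and CD44, with 2 peaks each and highest scores of 86.62 and 53.93. SPRY4, a feedback inhibitor of ERK signaling, was the 1 of 19 ERK feedback and SOCS genes, with 57.63. None of 21 chemokine and chemoattractant receptor genes had one, which allows a share of up to 14.3%, although 4 had an overlapped sc8558 peak. Peaks found only with ab21061 lay within 10 kb of 4 of these 21, 6 of the 19 integrin and 5 of the 18 SRC family genes. They also lay there for 4 of the 26 innate sensing and 3 of the 19 ERK feedback genes.

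Of the genes of mature phagocytes, several belong to families of near-identical copies, and both lists had intervals that held the 7.54% of all genes. Of 24 monocyte and macrophage genes 3 (12.5%, 2.66 to 32.4) had one, and 10 had an overlapped sc8558 peak. FCGR3A had 2, of 151.44 and 97.63, on either side of the gene. FCGR1A had one of 92.55 at 916 bp upstream of its 5′ end, where an ab21061-only peak of 51.71 stood 331 bp from it. CD86, a costimulatory ligand, had one of 67.86 among 4 overlapped peaks. Genes of the Fc receptor cluster and NCF1 have close copies elsewhere in the genome, so the placement of their reads is uncertain. Among 34 neutrophil granule genes there were 4 (11.8%, 3.30 to 27.5), none with the peak in the gene span. LTF, the lactoferrin gene, had 86.34 and NCF1, an NADPH oxidase subunit gene, had 79.87, while S100A9 and S100A12 shared 1 peak of 64.38 that lies between them. LTF, NCF1 and S100A9 had no overlapped sc8558 peak within 10 kb. Peaks found only with ab21061 lay within 10 kb of 3 of the 24 monocyte and macrophage genes and 4 of the 34 neutrophil granule genes.

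Lists of genes tied to GFI1 and to the fusion protein had intervals that held the 7.54% of all genes. Of 30 reported GFI1 targets 3 (10.0%, 2.11 to 26.5) had an sc8558-only peak, while 9 had an overlapped one. CDKN1B, the p27 inhibitor of cyclin-dependent kinases, had one of 95.83 between an ab21061-only peak and an overlapped one. GFI1 itself, on chromosome 1, had one of 60.51 from 92474801 to 92475384, inside the gene 304 bp from an ab21061 peak and among 4 overlapped sc8558 peaks of 55 to 171.31 in the span. MYC, a driver of growth, had one of 58.87 across an end of the gene. Of 26 corepressor partner genes 3 did, among them PRMT1, an arginine methyltransferase gene, with 76.4 at 122 bp from its 5′ end, and PHF21A, a subunit gene of the LSD1-CoREST complex, with 70.95. The corepressor list also had 3 genes with an overlapped sc8558 peak. Of 32 retinoid and PML-RARA genes 5 (15.6%, 5.28 to 32.8) did. DHRS9, a retinol dehydrogenase gene, had 3 of 104, 85.94 and 63.84 toward the 3′ end of the gene, NCOR1 had one of 71.08 and RXRA one of 53.5. PML had one of 54.17 on chromosome 15 from 73996581 to 73997405, with no ab21061 peak for 296 kb. GFI1B and RARA had 0 within 50 kb, where all 4 and 1 sc8558 peaks were overlapped. Peaks found only with ab21061 lay within 10 kb of 3 of the 30 target, 0 of the 26 corepressor and 5 of the 32 retinoid genes.

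The remaining lists had intervals that held the 7.54% of all genes. Of 28 stem cell, progenitor and HOX genes 3 had one, HHEX (65.29), FLT3 and SOX4 (51.24), and each of these also had an overlapped peak. Of 35 cell cycle genes 2 did, CDK6 and CDKN1B. Of 30 apoptosis genes 2 did, BCL2 (64.55) and PMAIP1, the NOXA gene, whose peak of 62.38 lay 502 kb from any ab21061 peak. Of 27 lymphoid genes 2 did, among them CD2 (53.32), and of 25 erythroid and megakaryocytic genes 1, ANK1 (67.81). None of 24 liver and neuron genes did, which allows up to 12.5%, and 2 of them had an overlapped sc8558 peak. Peaks found only with ab21061 lay within 10 kb of 7 of the 35 cell cycle and 4 of the 25 erythroid and megakaryocytic genes. They lay there for 3 of the 30 apoptosis and 1 of the 27 lymphoid genes, and for 0 in the stem cell and the liver and neuron lists. Median gene spans in the lists ran from 7.34 kb for reported GFI1 targets to 91.1 kb for the SRC family list, so the chance of holding a peak is not equal between lists.

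**Figure D5:**
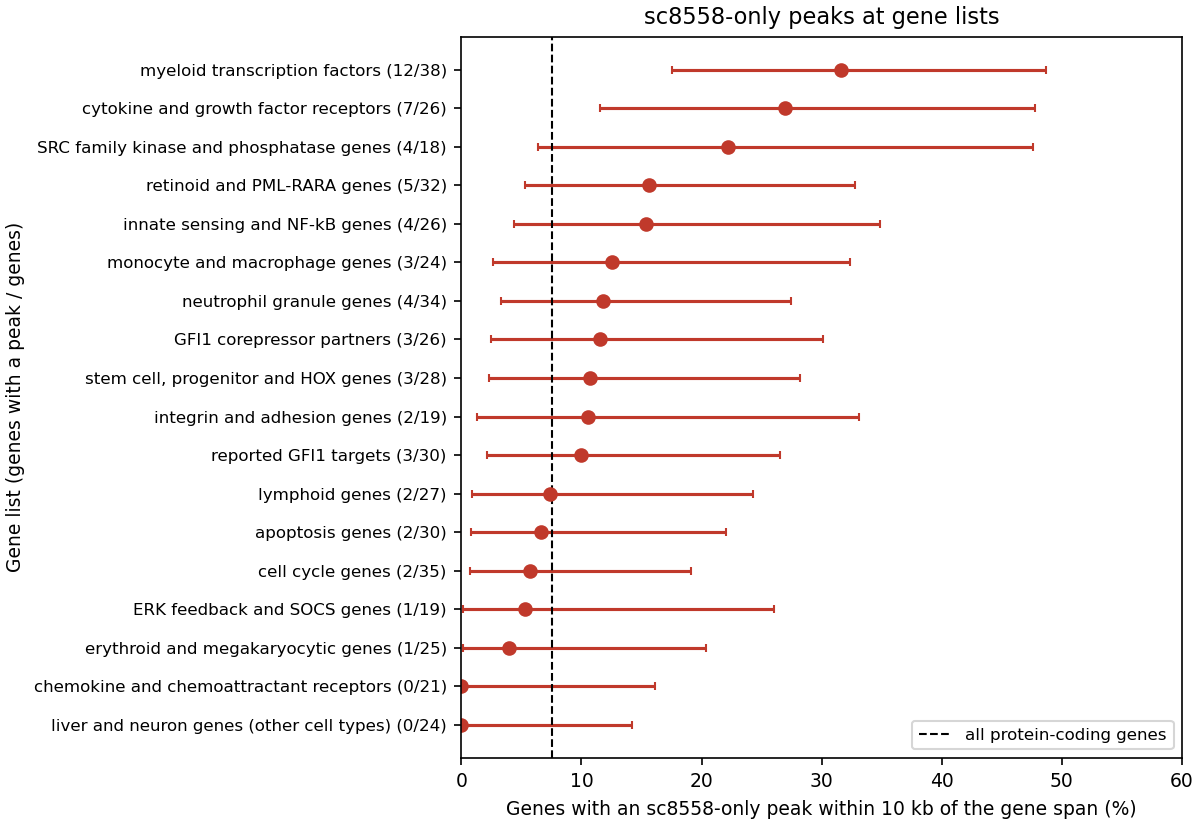
Share of the genes of each list (%) with an sc8558-only peak within 10 kb of the gene span, with 95% exact intervals and the number of genes. The dashed line is the 7.54% of all protein-coding genes. Myeloid transcription factors stand at 31.6% and the chemokine receptor and liver and neuron lists at 0.

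Across chromosomes, the share of sc8558 peaks without a counterpart ran from 25% of 56 on chromosome 18 to 43.8% of 80 on chromosome 22, among the 23 chromosomes with 50 or more peaks. Genes of small RNAs were rarely touched. Of the 2320 peaks 9 touched a tRNA gene and 5 an snRNA gene, shares of 0.388% and 0.216%, against 0.325% and 0.302% of overlapped sc8558 peaks. The 2 miRNA hairpins touched were MIR4703 (57.44) on chromosome 13 and MIR3945 (55.19) on chromosome 4. Long noncoding RNA genes were touched by 414 (17.8%) and by 18.6% of overlapped peaks.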

How the data were processed

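Chromatin immunoprecipitation and sequencing of NB4 cells gave 1 peak list per antibody. Alignment and peak calling involved hg38, MACS 1.4.2 and Bowtie2 2.2.9, per the submitters' processing notes. Nothing used here states options, read filters or a control. Each deposited peak carries a score from the authors. Each list belongs to 1 library, and sequencing depth is unknown.

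Overlap was counted from 1 bp, and the number of sc8558 peaks without overlap (2643 before the stretches were left out) was checked with bedtools 2.31.1, which gave 2643. The counting was also tested on simulated data. A stretch ran between annotated RefSeq genes (GRCh38.p14) or from the first base of the chromosome to the first gene, and 932 sc8558 peaks with their midpoint in one were left out. Gene ends came from 20033 protein-coding genes and strand from the RefSeq promoter table. Shares have exact Clopper-Pearson and differences Newcombe 95% intervals. They cover counting error only. A count of 0 has a limit of 3 counts of the total. No p-value was computed, since there is 1 library per antibody. Named were the 10 highest-scoring regions, the 10 highest within 1 kb of a gene end, the 5 highest over 100 kb from an ab21061 peak, the 5 on either side of the rule, the 5 genes with the most regions, up to 4 genes per list, and GFI1, GFI1B, PML and RARA. Some genes under this rule are not reported here. The regions and lists were chosen with earlier results of these data known. Python 3.11.15, pandas 2.3.3, scipy 1.17.1 and matplotlib 3.10.9 were used. Alternatives covered overlap, stretches, score, window, gene end and gene type.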

Additional observations from a re-analysis of the deposited data

How the results depend on the processing

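Leaving out a library was not possible with 1 per antibody. No paired analysis was possible because each antibody has 1 library. Unknown depth limits any reading of a peak missing from a list. The tests of 5′ and 3′ ends, of the difference from ab21061-only peaks, of the difference over 100 kb, and of genes without overlapped peaks were chosen after seeing the data. A minimum score leaves fewer peaks and another window takes in other ground by construction. Beyond that the cause was not tested.

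From a score of 100 upward there were 165 sc8558-only peaks (6.55% of sc8558 peaks), and 120 genes had one within 10 kb. At 60 or more there were 1275 (25.01%) and 907 genes. Inside genes lay 47.3% at 100 or more, where the difference from overlapped peaks turned to -3.56 points, and at 60 or more it was -0.209 points, each with 0 in the interval. Over 100 kb from a gene end lay 19.2% at 60 or more. The share without overlap was 38.4% where an overlap had to cover 50% of each peak and 32.9% when an ab21061 peak within 1 kb also counted. With the stretches kept, 45.0% were inside genes and 30.7% over 100 kb from an end. Within 2.5 kb of an end lay 15%, with any part within 1 kb 10.6%, and near ends of all gene types 15.6%. Counting only genes with known strand, the share was 5.94% for 5′ ends alone and 1.56% for 3′ ends alone. For 3′ ends the difference from overlapped peaks turned to 0.186 points. For ends of either kind the difference from overlapped peaks was -1.18 points (-2.59 to 0.288), and with any part of the peak within 1 kb it was -1.95 points (-3.52 to -0.320), which excluded 0. With genes of all types, 66.1% lay inside and 4.31% over 100 kb from an end. Only 221 genes had a peak within 1 kb of an end. The difference near 5′ ends from ab21061-only peaks was 1.34 points at 100 or more, 1.68 at 60 or more and 1.46 for ends of either kind, each with 0 in the interval. The difference over 100 kb from overlapped peaks was 1.80 to 7.0 points in the settings run over all scores or from a minimum score. Each of those intervals excluded 0. Within score bands the sign was not kept. The difference was 3.02 points at 50 to 60, 0.619 at 60 to 80 and -2.47 at 80 to 100, each with 0 in the interval.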
